A study of Mus musculus with 12 samples.

Results

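A set of 9 genes that carry glucose and fructose through liver glycolysis was followed in mouse liver RNA-Seq, namely Slc2a2, Gckr, Khk, Gpi1, Pfkl, Pfkfb1, Pgk1, Eno1 and Pklr. They were taken by gene name from a table of 55385 features, and all 9 passed the filter of a mean of at least 1 TPM that left 16378 features for testing. TPM values are transcript abundances scaled to gene length and to the same total in every mouse, so that levels of different genes can be set side by side.

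The 12 livers came from male C57BL/6 mice injected with adenovirus at 7 weeks of age and killed on day 7, at 500000000 plaque-forming units in each group. The 4 Ad-Ctrl mice received control virus (Lac with pAdV5), the 4 Ad-shmGULL mice received short hairpin RNA against the mouse long noncoding RNA mGULL with pAdV5, and the 4 Ad-shmGULL+hGULL mice received the hairpin with the human counterpart hGULL. All mice therefore carried adenovirus. The comparison of Ad-shmGULL with Ad-Ctrl asks what the hairpin against mGULL does to liver transcripts, and the comparison of Ad-shmGULL+hGULL with Ad-shmGULL asks whether hGULL offsets it. The methods describe the injection as intravitreal in one place and retro-orbital in another, and the hairpin used and the feeding state at killing are not given in the sources used here. No row was matched here to mGULL under the names tried and hGULL was not analysed here, so the knockdown was not checked in these libraries, and the groups are called by their labels. The study itself reports the efficiency of mGULL knockdown and hGULL overexpression by quantitative PCR in wild-type mice given adenovirus.

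Glucose enters the hepatocyte mainly through GLUT2 (Slc2a2) and is phosphorylated by a hexokinase that the protein encoded by Gckr holds inactive in the nucleus when sugar is scarce. Phosphoglucose isomerase, phosphofructokinase, phosphoglycerate kinase, enolase and pyruvate kinase (Gpi1, Pfkl, Pgk1, Eno1, Pklr) then act in turn on the way to pyruvate, while Pfkfb1 sets the level of the sugar bisphosphate that activates phosphofructokinase. Fructose is phosphorylated by ketohexokinase (Khk) and joins below phosphofructokinase. In liver, the pathway supplies carbon for fat synthesis after a meal, and Pklr is a classical target of the carbohydrate response factor encoded by Mlxipl.

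Hepatocyte markers were abundant in every liver, with 6 transcripts summing to 77440 to 112556 TPM in Ad-Ctrl, 81111 to 96926 TPM in Ad-shmGULL and 69819 to 83430 TPM in Ad-shmGULL+hGULL, and none was at 0. In Ad-shmGULL minus Ad-Ctrl, 4 of the 6 had a negative log2 fold change (5 with median-of-ratios scaling), and Apoa1 (-0.60, adjusted p = 0.115) and Fgb (-0.52, adjusted p = 0.0501, all Ad-shmGULL mice below all controls) were lower by more than 0.5 at an unadjusted p under 0.05. In Ad-shmGULL+hGULL minus Ad-Ctrl all 6 were negative under both scalings, at -0.05 to -0.60 as deposited. The part of these markers in the results was not tested. The number of genes above 1 TPM ranged from 15525 to 16929 per mouse, and mice of one group correlated at 0.964 to 0.986 across tested genes. Summed endothelial markers (5 genes) were 85.0 to 149.5 TPM in Ad-Ctrl, 141.4 to 184.9 in Ad-shmGULL and 136.2 to 166.3 in Ad-shmGULL+hGULL, and their part in the results below was not tested. All 5 were at a positive log2 fold change in Ad-shmGULL minus Ad-Ctrl. Of the 37 markers of 8 cell types, Ly6g and Krt7 were below the filter, at means of 0.39 and 0.41 TPM, and were not tested. Among the tested markers, Stab2, an endothelial scavenger receptor, was the only one with an adjusted p under 0.05 there (log2 fold change 0.54, adjusted p = 0.0476). The neutrophil marker Ly6g was at 0 in 1 mouse. In whole liver, fewer cells of a type and less RNA per cell cannot be told apart.

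Ketohexokinase, liver pyruvate kinase and phosphoglucose isomerase rose most in the livers labelled mGULL knockdown (Ad-shmGULL), to means 2.02 to 2.604 times those of Ad-Ctrl, and enolase followed. Of the 9 genes, 7 had an adjusted p under 0.05 and all 7 were higher, against 2.44% of all tested genes called higher. At a log2 fold change above 0.5 with unadjusted p under 0.05, the threshold the study names, 5 of 9 were higher against 5.35% of tested genes. In 8 of 9 genes all 4 Ad-shmGULL mice lay above all 4 Ad-Ctrl mice, as did 6.93% of tested genes. Their median log2 fold change was 0.51, whereas over every tested gene the median was 0.09. The 9 genes were chosen with earlier results of these data known. The shares of tested genes therefore give a scale and are not an independent test of the set.

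In Ad-Ctrl livers Khk had the highest mean level, 376 TPM, followed by Slc2a2 at 189, Eno1 at 163, Pklr at 162, Pgk1 at 135, Gckr at 102, Gpi1 at 89.4, Pfkfb1 at 46.1 and Pfkl at 14.4 TPM. The mice overlapped between neighbours from Slc2a2 to Pgk1 and between Gckr and Gpi1, and the other neighbours stood apart. In Ad-shmGULL livers Pklr was next to Khk, at 422 against 759 TPM, ahead of Eno1 at 267 and Slc2a2 at 244 TPM. The mice of Pklr and Eno1 overlapped in that group.

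**Figure D1:**
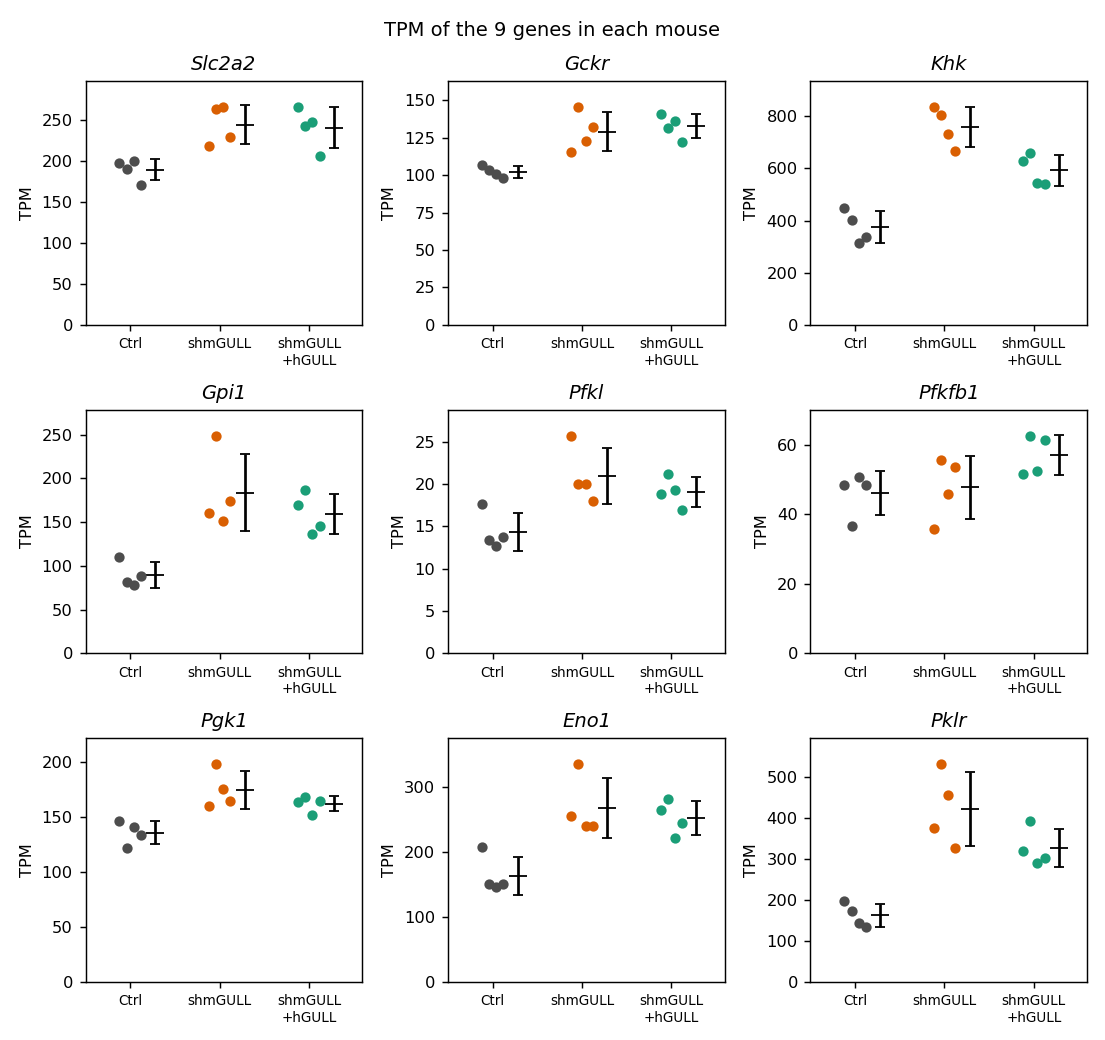
TPM of the 9 genes in each mouse, by virus group, with TPM from 0 on the vertical axis, a point for each mouse, and the mean and SD of 4 mice beside the points. Khk, Gpi1, Eno1 and Pklr are higher in every Ad-shmGULL mouse than in every Ad-Ctrl mouse, and the Ad-shmGULL+hGULL mice of Khk lie between the other groups.

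Pklr encodes the liver and red cell pyruvate kinase, which makes pyruvate in the last step of the pathway (ENSMUSG00000041237.12, chromosome 3, 89136122 to 89146815, plus strand, GRCm38.p6). Ad-Ctrl mice had 197, 173, 144 and 134 TPM, Ad-shmGULL mice 375, 531, 456 and 327, and Ad-shmGULL+hGULL mice 319, 392, 290 and 303. All 8 mice that received the hairpin lay above all 4 control mice. The mean rose from 162 ± 28.5 TPM (SD, n = 4) to 422 ± 90.1 TPM, a log2 fold change of 1.37 (SE 0.16, adjusted p = 0.00606), and by p-value Pklr ranked 3 of 16378 genes.

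The liver promoter of Pklr is shown because it holds the paired half-sites described for carbohydrate response elements. The 250 bases before the start of the liver transcript (RefSeq, GRCm38.p6, plus strand, chr3:89136373-89136622) hold CACGNG and CNCGTG separated by 5 bases from 170 to 154 bases upstream, and a TATA motif (TATAAA) from 31 to 26 bases upstream, both in capitals.

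Pklr: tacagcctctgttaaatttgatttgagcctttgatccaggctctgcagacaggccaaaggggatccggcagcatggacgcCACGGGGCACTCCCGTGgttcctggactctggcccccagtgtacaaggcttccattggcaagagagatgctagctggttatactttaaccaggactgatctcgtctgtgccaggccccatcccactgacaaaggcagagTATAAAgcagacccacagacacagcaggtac

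On either strand, the paired half-sites occurred in 13 of 32851 RefSeq promoter windows of this length (0.0396%), and TATAAA in 12.4%. Pklr was the only one of the 9 genes with the paired half-sites in its windows, of which the 9 genes had 15. Such matches describe the sequence and were not tested for binding.

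Khk encodes ketohexokinase, which phosphorylates fructose (ENSMUSG00000029162.15, chromosome 5, 30921436 to 30931248, plus strand). It was the most abundant of the 9 genes in the Ad-Ctrl livers, at 450, 403, 314 and 338 TPM. Ad-shmGULL mice had 835, 803, 733 and 666 TPM, and Ad-shmGULL+hGULL mice had 630, 657, 546 and 540 TPM. No mouse of one group overlapped another group, with the Ad-shmGULL+hGULL mice in between. The rise from 376 ± 61.6 to 759 ± 75.6 TPM in Ad-shmGULL gave a log2 fold change of 1.02 (SE 0.12, adjusted p = 0.00606), and Khk ranked 4 of 16378.

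A single E-box, CACGTG, stood in the Khk promoter window, in capitals in the 30 bases around it (RefSeq, GRCm38.p6, plus strand, chr5:30921476-30921505), shown because it was the only E-box in the windows of the 9 genes.

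Khk: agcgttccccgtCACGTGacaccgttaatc

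E-boxes occurred in 6.02% of all promoter windows. The E-box lies 71 to 66 bases before the transcript start and overlaps a match to TGACG on the minus strand (74 to 70 bases upstream), a motif found in 17.8% of windows. No window of the 9 genes held TGACGTCA (1.55% of all windows) or TCACNCCAC (1.05%). RefSeq places a further start of the Khk gene upstream of this E-box.

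Gpi1 encodes phosphoglucose isomerase, which turns phosphorylated glucose into the fructose form (ENSMUSG00000036427.5, chromosome 7, 34201327 to 34230336, minus strand). Its Ad-Ctrl levels were 110, 81.7, 77.5 and 88.0 TPM, and its Ad-shmGULL levels 161, 249, 151 and 175 TPM. The Ad-shmGULL+hGULL mice had 170, 186, 136 and 145 TPM, so both hairpin groups stood apart from the controls and overlapped each other. The log2 fold change in Ad-shmGULL was 1.02 (SE 0.16, adjusted p = 0.00995).

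Eno1 encodes alpha-enolase, which makes phosphoenolpyruvate (ENSMUSG00000063524.13, chromosome 4, 150236708 to 150248879, plus strand). The 4 controls had 207, 150, 145 and 151 TPM, the Ad-shmGULL mice 255, 335, 240 and 240, and the Ad-shmGULL+hGULL mice 263, 280, 221 and 243. Every hairpin mouse lay above every control, and both hairpin groups overlapped each other. Its log2 fold change in Ad-shmGULL was 0.71 (SE 0.14, adjusted p = 0.0194). The near-identical copy Eno1b, which could share reads with it, had a log2 fold change of 0.72 (adjusted p = 0.0266) at a mean of only 16.7 TPM, so the split between the copies is uncertain.

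Phosphofructokinase, the committed step, was the scarcest of the 9 genes (Pfkl, ENSMUSG00000020277.10, chromosome 10, 77986947 to 78009807, minus strand). Pfkl had 17.6, 13.4, 12.6 and 13.8 TPM in Ad-Ctrl, 25.7, 20.03, 20.07 and 18.0 in Ad-shmGULL, and 18.9, 21.2, 19.3 and 16.9 in Ad-shmGULL+hGULL. The Ad-shmGULL mice lay above the controls, narrowly, at a log2 fold change of 0.51 (SE 0.12, adjusted p = 0.0452). The last group overlapped both others.

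Pgk1 and Gckr rose by less. Phosphoglycerate kinase (Pgk1, ENSMUSG00000062070.12, chromosome X, 106187100 to 106203699, plus strand) had 146, 122, 141 and 134 TPM in Ad-Ctrl against 160, 198, 175 and 164 in Ad-shmGULL, a log2 fold change of 0.36 (SE 0.08, adjusted p = 0.0397), and 163, 168, 152 and 164 in Ad-shmGULL+hGULL. The regulatory protein gene Gckr (ENSMUSG00000059434.9, chromosome 5, 31297266 to 31327302, plus strand) had 107, 103, 101 and 97.9 TPM in Ad-Ctrl, 115, 146, 123 and 132 in Ad-shmGULL, and 141, 132, 136 and 122 in Ad-shmGULL+hGULL. Against Ad-Ctrl, Gckr in Ad-shmGULL was at a log2 fold change of 0.33 (SE 0.08, adjusted p = 0.0465), below 0.5 as for Pgk1. The copy Pgk1-rs7 was at a mean of 1.28 TPM, and Pgk2 was listed at 0 in all 12 mice.

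The glucose transporter Slc2a2 and the bifunctional enzyme Pfkfb1 did not pass the adjusted test. Slc2a2 (ENSMUSG00000027690.13, chromosome 3, 28697903 to 28728361, plus strand) had 197, 189, 200 and 171 TPM in Ad-Ctrl, 218, 263, 265 and 228 in Ad-shmGULL, and 265, 243, 247 and 205 in Ad-shmGULL+hGULL. All hairpin mice lay above the controls, and the log2 fold change in Ad-shmGULL was 0.36 (SE 0.10, adjusted p = 0.0624). For Pfkfb1 (ENSMUSG00000025271.13, chromosome X, 150587445 to 150643878, plus strand), the Ad-Ctrl mice had 48.5, 36.7, 50.8 and 48.5 TPM, the Ad-shmGULL mice 35.6, 55.8, 45.9 and 53.6, and the Ad-shmGULL+hGULL mice 51.7, 62.6, 52.3 and 61.5. The first 2 groups overlapped fully, with a log2 fold change of 0.04 (95% confidence interval -0.27 to 0.35, adjusted p = 0.916), and that sign turned to -0.07 when mice were rescaled by the median of ratios.

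The median of 0.09 over all genes moved to -0.01 when mice were rescaled. With median-of-ratios scaling, the calls over all genes went from 399 higher and 130 lower to 332 higher and 351 lower. Among the 9 genes, Pklr (1.26), Khk (0.91), Gpi1 (0.91), Eno1 (0.60) and Pgk1 (0.25) kept an adjusted p under 0.05, and Gckr (0.22, adjusted p = 0.0799) and Pfkl (0.41, adjusted p = 0.106) did not. The count of 7 genes fell to 3 without Ad-Ctrl 2, 3 or 4, and to 4 without Ad-shmGULL 2 or any one Ad-shmGULL+hGULL mouse. Pklr and Khk kept an adjusted p under 0.05 in all 20 alternatives.

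**Figure D2:**
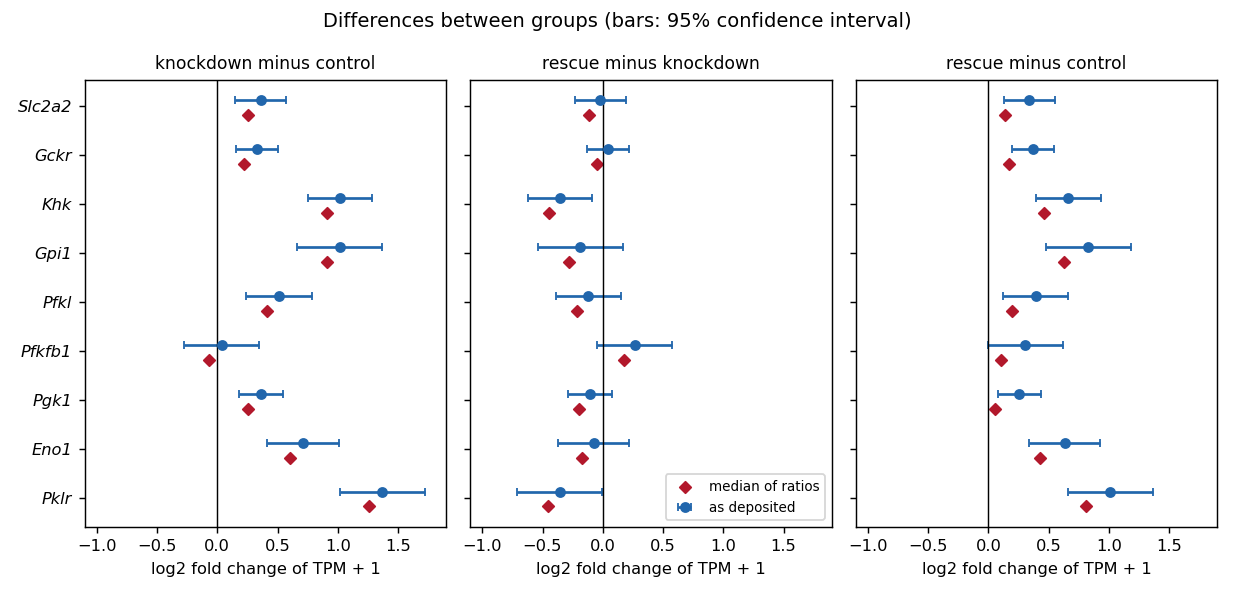
Log2 fold change of TPM + 1 of the 9 genes in the 3 comparisons (control, Ad-Ctrl; knockdown, Ad-shmGULL; rescue, Ad-shmGULL+hGULL), with circles and 95% confidence intervals for the values as deposited and diamonds for the values rescaled by the median of ratios. In knockdown minus control, 8 intervals lie above 0 and that of Pfkfb1 spans it; the diamonds of this comparison lie below the circles for all 9 genes.

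Of 23 other glycolysis genes, 20 were tested, and 2 rose at an adjusted p under 0.05. Of these, Pfkm, the muscle-type phosphofructokinase, rose by a log2 fold change of 0.47 (adjusted p = 0.0194, but 0.0526 with median-of-ratios scaling). The kinase gene Pfkfb3 was at -0.83 (adjusted p = 0.0501), with all Ad-shmGULL mice below all controls, and the mutase gene Pgam1 was at -0.48 (adjusted p = 0.0524, but 0.0349 at -0.59 with median-of-ratios scaling). Over the 20 genes the median was 0.05, near that of all tested genes.

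Among the 6 other fructose and polyol genes, 1 rose. Tkfc, the triokinase that acts downstream of ketohexokinase, went from 323 ± 57.0 to 611 ± 106 TPM (log2 fold change 0.91, adjusted p = 0.0115), whereas Sord, at 0.23, Glyctk, at 0.33, and the fructose transporter Slc2a5, at 0.20, had adjusted p of 0.242, 0.233 and 0.319. Khk and Tkfc, both enzymes of fructose use, thus rose. Of the 7 other glucose transporters, 4 were tested, and Slc2a4, the insulin-responsive GLUT4, rose by a log2 fold change of 1.49 (adjusted p = 0.0227) from a mean of only 0.584 TPM to 3.52 TPM. Slc2a9 was at 0.41 (adjusted p = 0.0547), Slc2a1 at 0.05 (adjusted p = 0.838) and Slc2a6 at -0.11 (adjusted p = 0.759).

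**Figure D3:**
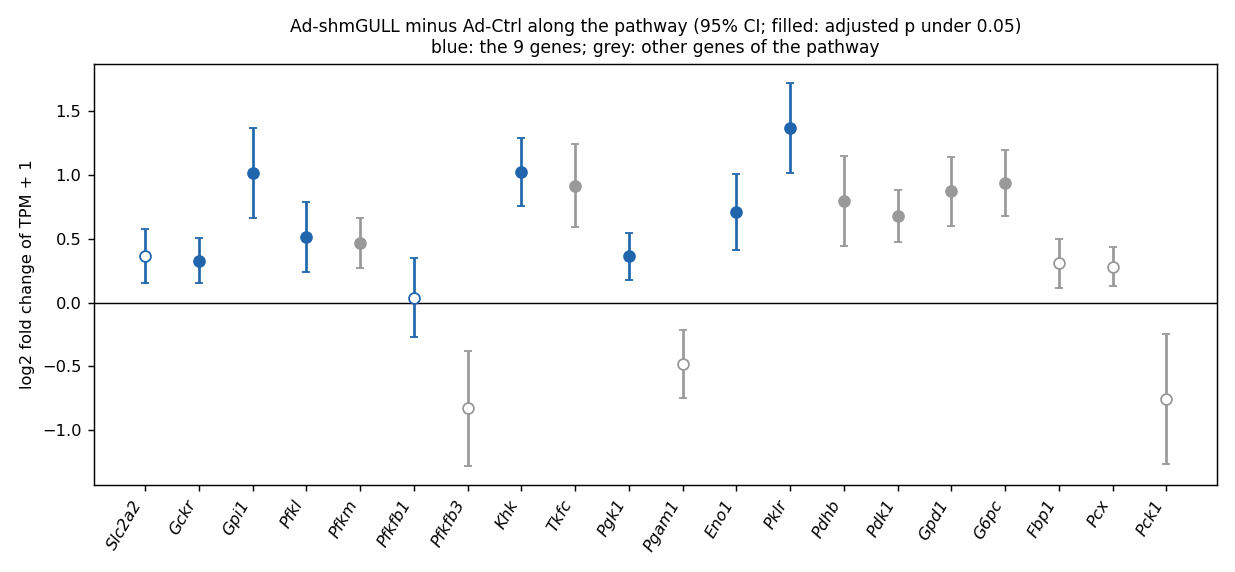
Log2 fold change of TPM + 1 in Ad-shmGULL minus Ad-Ctrl in pathway order, with 95% confidence intervals, the 9 genes in blue, other genes named by rule in grey, and filled points for an adjusted p under 0.05. Khk, at 1.02, and Tkfc, at 0.91, are near each other, while Pfkfb3, Pgam1 and Pck1 lie below 0.

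Where pyruvate and glucose go next, 3 of 16 genes of pyruvate fate rose, namely Pdk1, a kinase that inhibits pyruvate dehydrogenase (0.68, adjusted p = 0.00747), Gpd1, which links glycolysis to glycerol phosphate (0.87, adjusted p = 0.00747), and Pdhb, a subunit of pyruvate dehydrogenase (0.79, adjusted p = 0.0241). Pdhx, another component of that complex, was at 0.44 (adjusted p = 0.0517). Of 6 genes of glucose release, G6pc, the phosphatase that frees glucose, rose from 505 ± 52.8 to 970 ± 151 TPM (0.93, adjusted p = 0.00606). Pck1, Fbp1 and Pcx were at -0.75, 0.31 and 0.28, with adjusted p of 0.095, 0.0761 and 0.0531.

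Of 8 regulators of liver glycolytic genes, Srebf1, a lipogenic transcription factor, rose by a log2 fold change of 0.72 (adjusted p = 0.0373, 0.0854 with median-of-ratios scaling). Mlxipl, which encodes the carbohydrate response factor, was at 0.43 (adjusted p = 0.0662), with all Ad-shmGULL mice above all controls, and Arrdc4 was at 0.49 (adjusted p = 0.071). Hnf4a, the most abundant of the 8, was at -0.01 with adjusted p = 0.9747.

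Adding hGULL left no gene of the 9 past the adjusted test against Ad-shmGULL, where 0 of 16378 genes passed it in limma, 1757 genes had an unadjusted p under 0.05 and the smallest adjusted p was 0.117. None of the 9 was lower by more than 0.5 at unadjusted p under 0.05, against 0.672% of tested genes. Only Khk had all 4 Ad-shmGULL+hGULL mice below all 4 Ad-shmGULL mice, which held for 0.983% of tested genes. Its log2 fold change was -0.36 (95% confidence interval -0.62 to -0.09, adjusted p = 0.402). The unadjusted exact permutation p was 0.0286, the smallest that 4 against 4 allows. That value follows from the lack of overlap and adds nothing to it. Pklr was also at -0.36 (interval -0.71 to -0.01, adjusted p = 0.462), with overlapping mice. Log2 fold changes of the 9 genes were negative in 7 (in 8 with median-of-ratios scaling, where Gckr turned to -0.05), with a median of -0.10 while that of all genes was 0.09, and as deposited the intervals of the other genes spanned 0. With median-of-ratios scaling, unadjusted p was also under 0.05 for Pgk1 (-0.20, unadjusted p = 0.00711, adjusted p = 0.459) and Gpi1 (-0.28, unadjusted p = 0.0369, adjusted p = 0.545). At that scaling, 1460 of 16378 tested genes had an unadjusted p under 0.05 in either direction. Marker genes moved beside this comparison: the neutrophil genes S100a8 and S100a9 were at -0.78 and -0.84 (adjusted p = 0.421 and 0.404), and the summed neutrophil markers were 117.8 to 271.7 TPM in Ad-shmGULL and 88.4 to 139.4 TPM in Ad-shmGULL+hGULL. The hepatocyte genes Alb (-0.23, adjusted p = 0.706) and Ttr (-0.39, adjusted p = 0.458) lay lower in all 4 Ad-shmGULL+hGULL mice than in all 4 Ad-shmGULL mice. Of the 6 hepatocyte markers these 2 alone were negative as deposited, and 4 were positive, among them Serpina1a (0.23) and Fgb (0.18). The median of the 6 was 0.0036, or -0.09 with median-of-ratios scaling. The part of these markers in the result was not tested. Both this comparison and the first use the same Ad-shmGULL mice.

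Ad-shmGULL+hGULL livers still differed from Ad-Ctrl livers in 5 of the 9 genes at an adjusted p under 0.05, all higher, against 2.12% of tested genes. Pklr was higher by a log2 fold change of 1.01 (adjusted p = 0.0325), Gpi1 by 0.83 (0.039), Khk by 0.66 (0.0387), Eno1 by 0.63 (0.0426) and Gckr by 0.37 (0.0426). By the fold threshold, 4 of 9 were higher against 6.84% of tested genes, and all mice lay above the controls in 8 of 9, against 21.4%. With the median of ratios, 0 of the 9 in limma had an adjusted p under 0.05. An unadjusted p under 0.05 was found there for 5 of the 9, and for 2262 of 16378 tested genes in either direction. The adjusted calls over all genes fell from 348 higher and 4 lower to 10 higher and 1 lower. As deposited, the count of 5 with an adjusted p under 0.05 was 0 without Ad-Ctrl 2, 3 or 4. It was also 0 without any one Ad-shmGULL+hGULL mouse, and 1 without Ad-shmGULL 4. Over the 9 genes the median was 0.39 as deposited, and over all tested genes 0.17. Here too the shares of tested genes give only a scale, because the 9 genes were chosen with earlier results known.

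Within the isozyme families, Pklr made up most of the pyruvate kinase transcripts (Pklr plus Pkm). Its share was 85.4% ± 3.18 (SD, n = 4) in Ad-Ctrl, 94.4% ± 1.001 in Ad-shmGULL and 91.1% ± 0.989 in Ad-shmGULL+hGULL, and no group overlapped another. The exact permutation p was 0.0286 in each comparison and 0.107 after adjustment over the 15 share comparisons. The value of 0.0286 is the smallest that 4 against 4 allows and follows from the lack of overlap. Pkm itself overlapped between the groups, at means of 27.7 TPM in Ad-Ctrl, 24.8 in Ad-shmGULL and 31.6 in Ad-shmGULL+hGULL. Pfkfb1 had 45.3% ± 8.58 of the Pfkfb transcripts in Ad-Ctrl, 56.8% ± 6.37 in Ad-shmGULL and 56.0% ± 4.08 in Ad-shmGULL+hGULL. For the first 2 groups the exact permutation p was 0.0571, or 0.143 after adjustment. Ad-Ctrl 2 had the lowest Pfkfb1 (36.7 TPM) and the highest Pfkfb3 (61.6 TPM) of the controls. Shares ran from 32.6 to 50.8% in Ad-Ctrl and from 50.1 to 65.5% in Ad-shmGULL, so these 2 groups overlapped. The TPM of Pfkfb1 itself overlapped between those groups, while Pfkfb3 was lower in all Ad-shmGULL mice. Group means were 84.5 to 86.4% for Slc2a2 among 5 sugar transporters, 39.7 to 43.0% for Pfkl among the phosphofructokinases and 89.4 to 90.5% for Eno1 among the enolases. The 5 transporters summed were Slc2a2, Slc2a1, Slc2a3, Slc2a4 and Slc2a8. Slc2a9 (mean 37.8 TPM) and Slc2a5 (mean 10.8 TPM) were left out, so the share of Slc2a2 holds for that choice only.

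**Figure D4:**
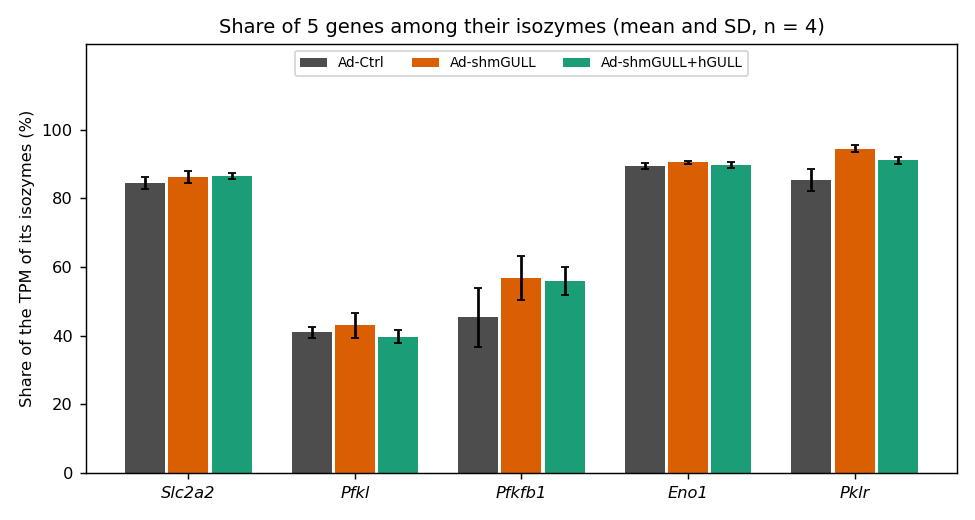
Share of each gene in the summed TPM of its isozymes, in percent from 0, with bars for the mean and SD of 4 mice in each group. Pklr is at 85.4% in Ad-Ctrl, 94.4% in Ad-shmGULL and 91.1% in Ad-shmGULL+hGULL, and Slc2a2 is at 84.5 to 86.4%.

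Across the 12 mice, the protein-coding genes whose log2(TPM + 1) followed these genes most closely, of 7551 compared, came partly from the pathway itself. Khk was most like Tkfc (Pearson r = 0.983), then Thrsp (0.970) and Vwce (0.967), and Gpi1 was most like Eno1 (0.983), Acaca (0.982) and Pdhb (0.978). Pklr was most like Slc25a1 (0.977), the mitochondrial citrate carrier, and also like Acly (0.967), which makes acetyl-CoA from citrate. Eno1 was followed by Gpi1, Mdh2 (0.982) and Pdhb (0.9747). The closest genes were, for Gckr, Zfp750 (0.964), Timd2 (0.959) and Nfe2l2 (0.953), for Pfkl, Repin1 (0.967), Bmyc (0.955) and Ndufa8 (0.955), and for Pgk1, Mocs2 (0.970), Aplp2 (0.967) and Cyb5b (0.959). These correlations describe mice of 3 groups together, which differ in level, and carry no test.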

How the data were processed

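RNA was measured by strand-specific RNA-Seq in 12 mouse livers, grouped by sample titles. The authors trimmed reads with fastp 0.23.2, checked them with FastQC 0.11.8, aligned them to GRCm38.p6 with HISAT2 2.2.1.0, used GENCODE VM24 genes for counting (the submitters' notes name featureCounts and Subread 2.0; the strand setting is not given in the sources used here) and deposited TPM values. These sum to the same total in every mouse, so depth is unknown and precision is given by the spread between mice.

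Values were analysed as log2(TPM + 1) in R 4.3.3 with limma 3.58.1, for 16378 features with a mean TPM of at least 1, in one model of the 3 groups with a mean-variance trend and no covariate. P-values were adjusted by Benjamini-Hochberg over all 16378. Fold changes on this scale understate changes of low genes. The study states no test, so the log2 fold change of 0.5 with P under 0.05 was applied beside the adjusted p. The procedure was run on simulated data with independent noise for each gene and mouse. Those data hold no shift shared by the genes of a mouse, so that run does not bear on the scaling. Where a name has several features, the one with the highest mean was used. Named genes of each other list are the 4 with the smallest p in Ad-shmGULL minus Ad-Ctrl and the most abundant one. Likeness took the 3 protein-coding genes with mean TPM of at least 10 and the highest r. The values of some genes that these rules name are not reported here. Shares were tested by exact two-sided permutation. Members and lists were chosen with earlier results of these data known. Alternatives were leaving the low genes in, a higher filter (mean TPM of 5), a pseudocount of 0.1, median-of-ratios scaling, quantile normalization, only the 2 groups compared, no trend, a replicate block, and leaving out each mouse. Promoter windows and gene positions are from RefSeq (GRCm38.p6). Figures were drawn with matplotlib.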

Additional observations from a re-analysis of the deposited data

Results flagged for a closer look

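In 3 of 27 sets of 4 mice (9 genes in 3 groups), 1 mouse lay far from the other 3 by Dixon's test at the 95% level, where about 1 in 20 sets is expected by chance. Ad-Ctrl 2 had 36.7 TPM of Pfkfb1, below the other controls, and Ad-Ctrl 1 had 207 TPM of Eno1, above the other controls. Ad-shmGULL 2 had 335 TPM of Eno1, above the other mice of its group. Without Ad-Ctrl 2 the log2 fold change of Pfkfb1 in Ad-shmGULL minus Ad-Ctrl was -0.07.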

How the results depend on the processing

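TPM carry no depth, so counting error is unknown, and 4 mice per group limit the adjusted test. In Ad-shmGULL minus Ad-Ctrl, the count of 7 genes at an adjusted p under 0.05 was 4 without a filter, 2 with only the 2 groups compared and 4 without a trend, and 3 to 7 when leaving out a mouse. In Ad-shmGULL+hGULL minus Ad-Ctrl, the count of 5 was 0 without a filter, 0 with median-of-ratios scaling, 0 with quantile normalization, 1 without a trend, 3 with the replicate block, and 0 to 6 when leaving out a mouse; the count of 4 past the fold threshold was 2 with median-of-ratios scaling. The direction of Pfkfb1 in Ad-shmGULL minus Ad-Ctrl reversed with median-of-ratios scaling (-0.0697) and quantile normalization (-0.0322), and ran from -0.0651 to 0.169 when leaving out a mouse. In Ad-shmGULL+hGULL minus Ad-shmGULL, Gckr reversed with the same scalings (-0.0488 and -0.0237) and ran from -0.0066 to 0.104, Slc2a2 from -0.0728 to 0.0507 and Eno1 from -0.13 to 0.0359 when leaving out a mouse. The cause was not tested. Of 540 fold changes recomputed under alternatives, 418 kept direction and side of the threshold, 107 lost the call, 3 gained one and 12 reversed. The 540 include genes never called, such as all 9 in Ad-shmGULL+hGULL minus Ad-shmGULL, which had no call to lose. All 107 losses fell on the 7 genes called in Ad-shmGULL minus Ad-Ctrl and the 5 called in Ad-shmGULL+hGULL minus Ad-Ctrl. All 123 recomputed share differences moved by no more than the larger SD of the 2 groups compared. That SD was taken with every mouse in, so a mouse far from its group widens it and the rule is loose. Over all genes, adjusted calls in Ad-shmGULL minus Ad-Ctrl were 180 higher and 56 lower without a filter and 27 higher and 6 lower with only the 2 groups compared. The replicate numbers did not pair the mice (12 same-numbered pairs, 2 with r over 0.1, range -0.24 to 0.15); with the replicate block the adjusted counts in Ad-shmGULL minus Ad-Ctrl stood at 5.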
